A study of Mus musculus with 12 samples.

Results

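Contractile genes of the myofibroblast program were followed in mammary gland fibroblasts of mice with and without ovarian hormones. The 9 genes were Acta2, Tagln, Myl9, Tpm1, Tpm2, Cnn1, Cnn2, Cald1 and Actg2, taken by their symbols from the 27998 genes listed in every count matrix. The rule takes them by name, not by a value in the files, although earlier results of these data were known when they were listed, and they were read in 4 groups of fibroblasts defined by marker genes that include none of them. The question was whether contractile genes moved together with extracellular matrix genes when hormones were given back.

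Cells dissociated from mammary glands of female C57BL/6J mice aged 43 weeks were sequenced singly, by their RNA 3′ ends captured in droplets, in 12 libraries, 1 per group. All groups except Intact had received 4-vinylcyclohexene diepoxide (VCD, 160 mg/kg per day for 15 days), which destroys the ovarian follicles, and so lacked the hormones of a working ovary. VCD_Vehicle, VCD_E2 and VCD_E2_P4 ate the control diet and were injected in the final week with sesame oil, with estradiol (E2, 1 µg per animal per day for 1 week), or with E2 and progesterone (P4, 1 mg per animal per day). VCD_E2_ICI received E2 and 1 dose of 5 mg per animal of ICI (fulvestrant), which degrades the estrogen receptor. VCD_Low_PBDE, VCD_Low_E2 and VCD_Low_E2_P4 were the same 3 hormone arms on a diet with polybrominated diphenyl ethers (PBDE-47 at 0.05, PBDE-100 at 0.0028 and PBDE-153 at 0.0063 mg/kg per day) for 20 weeks, from 100 days after VCD onset. VCD_High_PBDE, VCD_High_PBDE_E2 and VCD_High_PBDE_E2_P4 ate 1, 0.056 and 0.126 mg/kg per day of these compounds for 1 week, so a higher dose came with a shorter exposure and the pair cannot be told apart. VCD_Vehicle_NormEnv was a vehicle group open to environmental PBDEs from cage plastics. The number of mice behind a library is not given in the sources used here, so p-values measure the spread between libraries that remained after hormone and PBDE were fitted, and this spread may be technical. Each combination of hormone and PBDE was 1 library, so the spread also holds any dependence of the hormone response on PBDE.

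Contractile force in cells comes from actin filaments pulled by myosin. Acta2 (smooth muscle α-actin) and Actg2 (smooth muscle γ-actin) encode the filament, Myl9 a regulatory light chain of the myosin motor, and Tpm1 and Tpm2 the tropomyosins that lie along the filament. Cald1 (caldesmon), Cnn1 and Cnn2 (calponins) bind actin and restrain or stabilize it, and Tagln (transgelin) is an actin-bundling protein of smooth muscle. In a healthy mammary gland the strongest contractile cells are the basal, or myoepithelial, cells of the ducts and the mural cells of vessels. Fibroblasts that switch on Acta2 and its companions are called myofibroblasts, and they are known from healing wounds, fibrosis and tumor stroma, where they also lay down collagen.

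Serum response factor, which controls many contractile genes, binds a DNA element named the CArG box, in which 6 bases of A or T stand between CC and GG. RefSeq promoters on GRCm38.p6, each of 300 bases from 250 before to 50 after a start site, were matched by symbol to 7 of the 9 genes (8 promoters) and not to Tagln and Actg2. An exact CArG box on either strand was present in 2 of the 8, those of Cnn2 and Myl9, and in 1.63% of the 32851 promoters of the table. Boxes that depart from this pattern by a base were not searched, so a promoter without an exact match is not shown to lack the element. These promoters are shown because they hold the box, although Cnn2 and Myl9 responded differently below. The Cnn2 window is chr10:79988350-79988649 on the plus strand, with the box 56 bases upstream of the start site, and the Myl9 window is chr2:156775214-156775513 on the plus strand, with the box 161 bases upstream. Capitals mark the CArG box.
Cnn2: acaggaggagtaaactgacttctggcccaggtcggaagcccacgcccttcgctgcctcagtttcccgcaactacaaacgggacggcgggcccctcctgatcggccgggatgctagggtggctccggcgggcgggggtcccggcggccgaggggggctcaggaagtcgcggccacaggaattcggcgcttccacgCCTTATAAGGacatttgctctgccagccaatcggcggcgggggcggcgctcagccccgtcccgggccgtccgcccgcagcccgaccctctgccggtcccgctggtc
Myl9: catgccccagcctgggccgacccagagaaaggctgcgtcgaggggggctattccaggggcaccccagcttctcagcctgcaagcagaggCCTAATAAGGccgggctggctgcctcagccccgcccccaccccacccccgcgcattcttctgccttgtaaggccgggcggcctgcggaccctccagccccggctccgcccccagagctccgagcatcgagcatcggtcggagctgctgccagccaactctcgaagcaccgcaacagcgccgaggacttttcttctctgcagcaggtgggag

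On GRCm38, the gene bodies lie at chr19:34241090-34255590 (Acta2, ENSMUSG00000035783), chr9:45929619-45936058 (Tagln, ENSMUSG00000032085), chr2:156775420-156781658 (Myl9, ENSMUSG00000067818), chr9:67022590-67049406 (Tpm1, ENSMUSG00000032366) and chr4:43514711-43523765 (Tpm2, ENSMUSG00000028464). Those of the calponins, caldesmon and γ-actin lie at chr9:22099216-22109630 (Cnn1, ENSMUSG00000001349), chr10:79988584-79996062 (Cnn2, ENSMUSG00000004665), chr6:34598500-34775473 (Cald1, ENSMUSG00000029761) and chr6:83512905-83536265 (Actg2, ENSMUSG00000059430). Tagln overlaps Pcsk7 and Cald1 overlaps Gm13861, Npn2 and Gm14547 on the other strand, and whether the counting used strand is not given in the sources used here. Acta2 and Actg2 encode near-identical proteins, and whether any reads were shared between the 2 genes was not tested.

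The libraries held between 41737881 and 109224969 UMIs (unique molecular identifiers, each standing for 1 captured RNA molecule). Of 58620 barcodes, 46257 were kept as cells, and 31438 of these were taken as fibroblasts (1413 to 4814 per library), with a median of 14304.5 to 22086 UMIs per fibroblast. A score over 5 markers placed 11333 fibroblasts in the Dpp4 gate (also Pi16, Anxa3, Sema3c and Cd55), 6058 in the Fabp4 gate (also Lpl, Cxcl14, Smoc2 and Col15a1), 2822 in the Tnc gate (also Mfap4, Mdk, Penk and Enpp2) and 3176 in the Gdf10 gate (also F3, Gas6, Clec11a and Fmo2), and 8049 (25.6%) stayed ungated. The gate scores form a continuum, and 2864 fibroblasts (9.11%) lay within 0.1 of the limit between gated and ungated. Libraries shared 274 barcodes (556 cells, 1.20% of those that passed). VCD_Low_E2_P4 and VCD_Vehicle_NormEnv stood apart in holding 71 and 20 of the 100 skeletal muscle cells, and results that rest on VCD_Low_E2_P4 are given below without it as well.

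Where the 9 genes were expressed was read first. Levels are given as counts per 1000000 UMIs of the summed cells (CPM), a scale without a correction for gene length, so a level is compared only with levels of the same gene. Over all fibroblasts Acta2 came to 4.92 CPM, no higher than in immune cells (5.73 CPM), which should lack it, against 2702 CPM in 58 mural cells and 5899 CPM in 11 basal epithelial cells. Tagln came to 6.42 CPM in fibroblasts, 2.71 in immune cells, 3046 in mural cells and 3206 in basal cells. The pooled Acta2 level of immune cells was raised by 2 libraries (24.6 and 21.4 CPM), with 1.01 to 4.44 CPM in the other 10, where Acta2 in fibroblasts ran from 1.43 to 11.4 CPM. Since Acta2 in fibroblasts, at most 11.4 CPM in these 10 libraries, lay far below mural and basal cells, the fibroblasts as a whole are not named myofibroblasts. The genes are called contractile genes here. Cnn1 and Actg2, the most smooth muscle-restricted of the 9, had 48 and 26 UMIs in all 31438 fibroblasts, at most 9 and 11 of them in 1 cell. They did not pass the filter on low counts in any gate, were not detectable as a response at this depth, and leave 7 genes that were tested.

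Cald1, Tpm1 and Myl9 were of another kind. Cald1 came to 454 CPM in fibroblasts against 32.5 in immune cells, and Myl9 to 48.6 CPM against 3.62, so that these levels belong to the fibroblasts. Tpm1 came to 76.3 CPM in fibroblasts and 37.4 in immune cells, and Tpm2 to 17.9 and 3.64 CPM. Cnn2, which is also used outside muscle, was at 24.7 CPM in fibroblasts and higher, at 198 CPM, in immune cells.

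The gates differed in all 7 genes. Against the mean of the other 3 gates, over 48 sums with library as a block, the Tnc gate was higher in 6 of 7 genes and lower in Myl9 (edgeR's quasi-likelihood test, Benjamini-Hochberg adjusted p under 0.05), where 59.4% of all 12495 genes tested were called in that contrast and 30.2% were higher. The log2 fold changes in the Tnc gate were 2.49 for Tagln (SE 0.332, adjusted p = 3.58e-08, edgeR), 2.21 for Tpm2 (SE 0.192, adjusted p = 1.05e-12, edgeR) and 1.85 for Acta2 (SE 0.307, adjusted p = 2.33e-06, edgeR). They were smaller for Cnn2 (0.46), Cald1 (0.37) and Tpm1 (0.28), and -0.58 for Myl9. These contrasts take all 12 libraries together, over hormone arms whose effect differed between gates. In the 3 VCD libraries without hormone alone, Tpm2 stood apart in the Tnc gate, at 17.4 to 34.3 CPM against at most 8.82 CPM in a library of any other gate. Acta2 (3.06 ± 1.10 CPM, SD, n = 3) was there close to the Fabp4 gate (2.81 ± 0.285 CPM) and the Gdf10 gate (2.48 ± 0.522 CPM). Cald1 (335 ± 20.0 CPM) was below the Fabp4 gate (504 ± 96.0 CPM), and Cnn2 (15.0 ± 4.34 CPM) was below the Dpp4 gate (26.2 ± 1.47 CPM). Tagln in the Tnc gate ran from 2.31 to 13.0 CPM there, with a median of 2.37 CPM. It ran from 2.36 to 2.86 CPM in the Gdf10 gate and from 0.949 to 1.28 CPM in the Fabp4 gate. Tpm1 (71.7 ± 2.79 CPM) was close to the Fabp4 gate (71.9 ± 3.68 CPM) and below the Gdf10 gate (79.8 ± 9.80 CPM). The gates were not tested within these 3 libraries alone. The Dpp4 gate, which holds the fibroblasts known as adventitial or progenitor-like, was the opposite: 6 of 7 genes were lower (70.8% of all genes called, 35.6% lower), with Acta2 at -2.49, Tagln at -2.42, Tpm2 at -1.31, Tpm1 at -0.75, Cald1 at -0.65 and Myl9 at -0.60, and Cnn2 was higher by 0.50. The Fabp4 gate was higher in Cald1 (0.72) and Myl9 (0.48), with 58.1% of all genes called. The Gdf10 gate was higher in Myl9 (0.69) and Tpm1 (0.41) and lower in Cnn2 (-0.73) and Cald1 (-0.44), with 48.9% of all genes called. Myl9 and Cald1 therefore did not follow the same order of gates as Acta2, Tagln and Tpm2. The gates were cut from other genes of the same cells, so these contrasts describe them and do not test them on new cells.

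In the Tnc gate, most of the contractile genes were higher with E2 or E2 + P4. The 3 VCD libraries without hormone (on control, low PBDE and high PBDE diet) were compared with the 6 libraries given E2 or E2 + P4 on the same diets, with hormone and PBDE as terms of 1 fit. Of the 7 genes tested, 6 rose and Myl9 did not pass the test, where 31.7% of the 11002 genes tested were called and 16.1% were higher. The CPM of the 6 hormone libraries lay above those of all 3 others for Acta2, Tpm1, Tpm2, Cnn2 and Cald1, which 17.1% of all genes showed in the upward direction. The gate held 480, 376 and 144 cells in the libraries without hormone, 135, 174 and 186 with E2, and 180, 247 and 108 with E2 + P4. Tnc itself is a matrix gene, and whether the gate holds the same kind of cells with and without hormone was not tested.

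Acta2 in the Tnc gate stood at 3.79, 1.80 and 3.60 CPM in VCD_Vehicle, VCD_Low_PBDE and VCD_High_PBDE, at 20.9, 4.37 and 21.8 CPM in VCD_E2, VCD_Low_E2 and VCD_High_PBDE_E2, and at 52.1, 20.3 and 22.6 CPM in VCD_E2_P4, VCD_Low_E2_P4 and VCD_High_PBDE_E2_P4. All hormone libraries were above all others, but VCD_Low_E2 only just, and VCD_E2_P4 was far above its neighbours. The log2 fold change was 2.83 (SE 0.367, adjusted p = 0.000241, edgeR).

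Tagln, in the same order, was at 2.37, 2.31 and 13.0 CPM without hormone, at 7.85, 9.07 and 43.0 CPM with E2, and at 68.4, 59.5 and 71.8 CPM with E2 + P4. The high-PBDE vehicle library overlapped with 2 of the E2 libraries, while the 3 E2 + P4 libraries lay together above all the rest. Its log2 fold change was 2.91 (SE 0.448, adjusted p = 0.000716, edgeR).

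Tpm2 was at 34.3, 17.4 and 18.0 CPM without hormone, at 58.0, 37.0 and 72.3 CPM with E2, and at 107, 93.6 and 80.5 CPM with E2 + P4, with no overlap between the hormone libraries and the others. The log2 fold change was 1.53 (SE 0.209, adjusted p = 0.000341, edgeR). The other tropomyosin, Tpm1, was at 73.2, 68.5 and 73.4 CPM without hormone, at 150, 102 and 99.7 CPM with E2, and at 118, 141 and 121 CPM with E2 + P4. It also showed no overlap, and its rise of 0.68 was smaller (SE 0.144, adjusted p = 0.00466, edgeR).

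Among the actin regulators, Cnn2 was at 14.7, 10.8 and 19.4 CPM without hormone, at 42.3, 33.3 and 27.8 CPM with E2, and at 47.6, 50.6 and 66.6 CPM with E2 + P4. Its log2 fold change was 1.51 (SE 0.206, adjusted p = 0.000325, edgeR), again with no overlap. Cald1, at 345, 347 and 312 CPM, rose to 696, 661 and 681 CPM with E2 and to 959, 826 and 845 CPM with E2 + P4. The 3 arms formed 3 separate steps with little spread inside each, namely 335 ± 20.0, 679 ± 17.7 and 877 ± 72.3 CPM (mean ± SD, n = 3 libraries), and the log2 fold change was 1.12 (SE 0.0990, adjusted p = 1.91e-05, edgeR).

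Myl9, the myosin light chain, was the exception. It was at 31.0, 33.3 and 38.9 CPM without hormone, at 37.9, 24.9 and 38.8 CPM with E2 and at 50.7, 57.1 and 55.3 CPM with E2 + P4, so that 2 of the E2 libraries lay among the vehicle libraries, VCD_Low_E2 lay below them and only the E2 + P4 libraries stood above them. With both hormone arms averaged against none, the log2 fold change was 0.24 (SE 0.144, adjusted p = 0.235, edgeR), whereas the E2 libraries alone averaged 33.9 ± 7.81 CPM against 34.4 ± 4.03 CPM without hormone (SD, n = 3 each). Cnn1 and Actg2 had 4 UMIs each in the whole gate, and 3 UMIs of a library would be 0.581 to 2.16 CPM there.

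**Figure D1:**
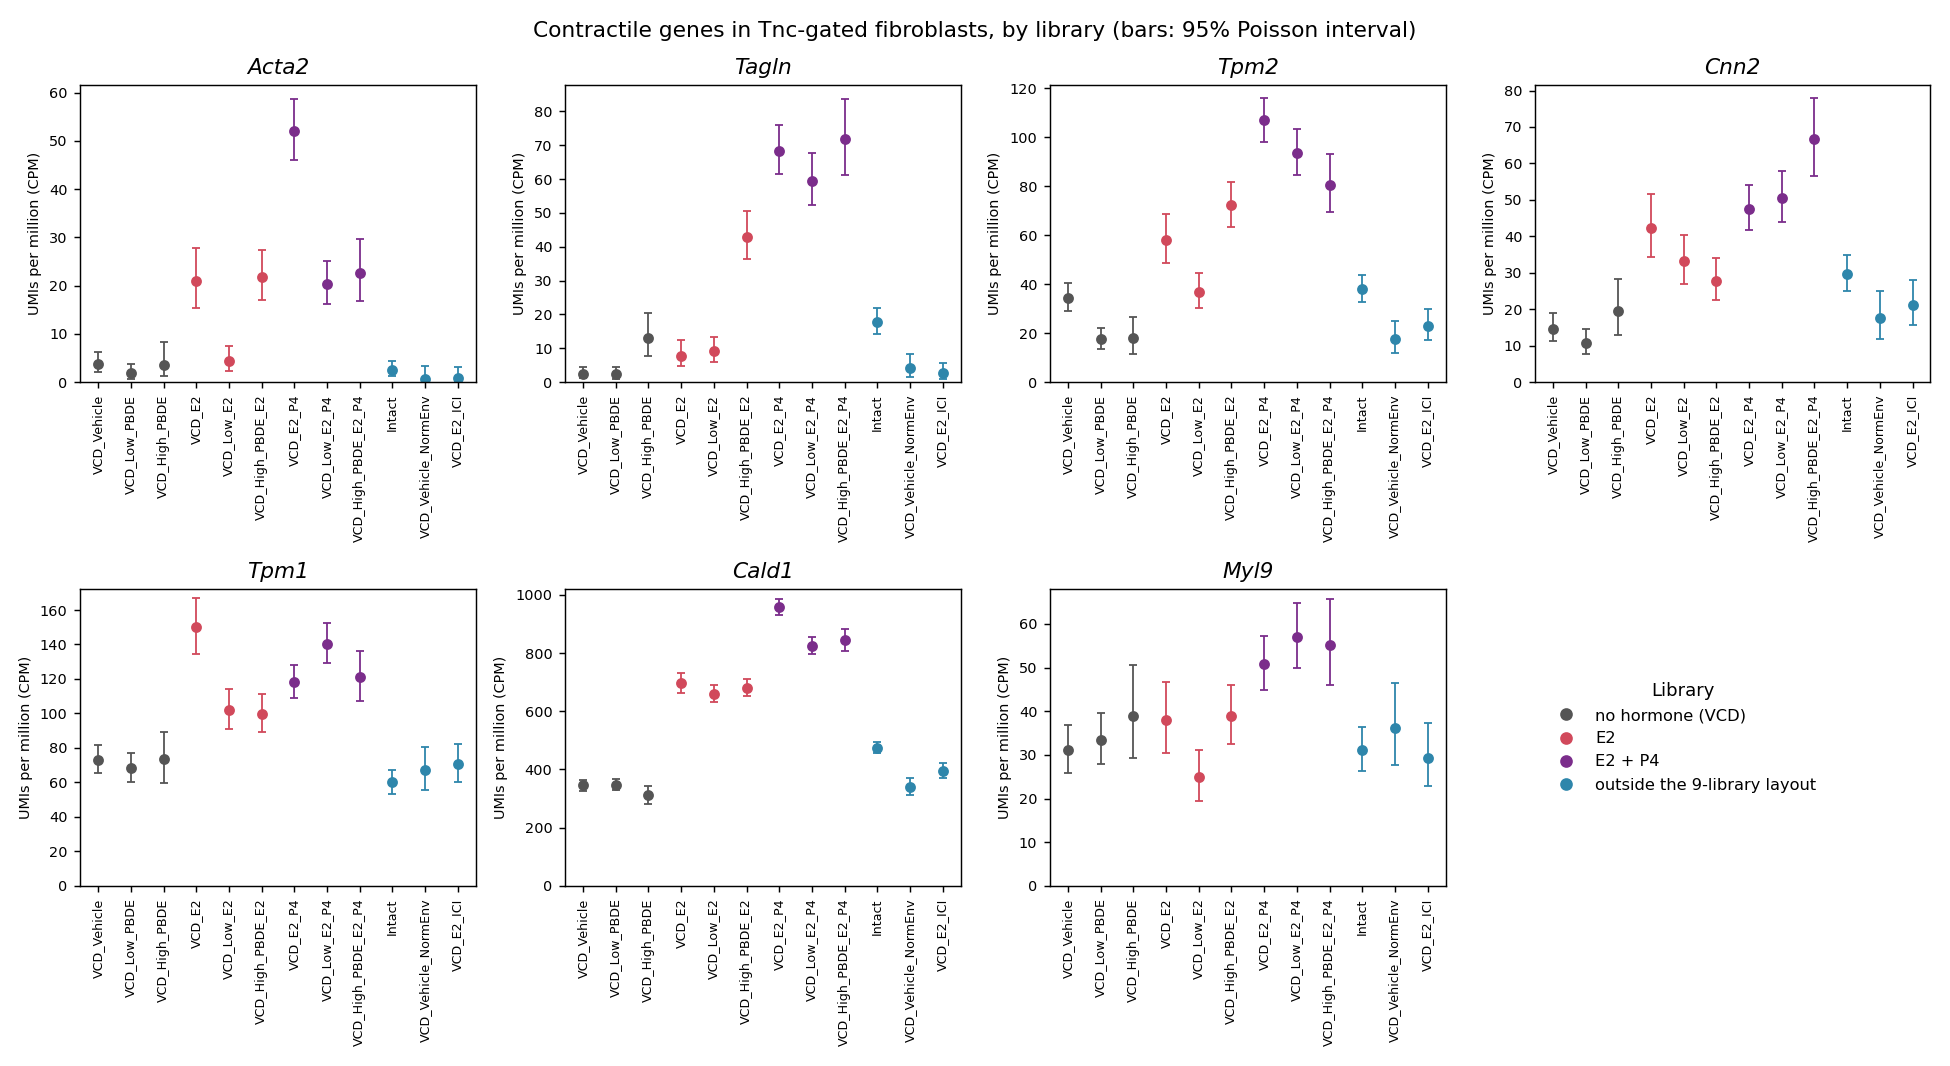
CPM (UMIs per 1000000 UMIs of the summed Tnc-gated cells, linear axes from 0) of 7 contractile genes in each of the 12 libraries, with 95% exact Poisson intervals that cover counting error only; grey marks no hormone after VCD, red E2, purple E2 + P4 and blue the 3 libraries outside the 9-library layout. Cald1 forms 3 steps around 335, 679 and 877 CPM, while Myl9 stands above the vehicle range only with E2 + P4.

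The 6 calls for E2 in the Tnc gate remained in each of 24 other settings, which included DESeq2, other gate limits, the removal of doublets and each library left out in turn. Mural and basal cells held far more Acta2 and Tagln than fibroblasts. Skeletal muscle cells held far more Tpm1 and Tpm2 but less Tagln, Myl9, Cnn2 and Cald1. In one of these settings, cells with any UMI of a mural, basal or skeletal muscle marker were therefore dropped. This left log2 fold changes of 3.50 for Acta2, 3.07 for Tagln, 1.49 for Tpm2, 1.24 for Cnn2, 1.15 for Cald1 and 0.58 for Tpm1. Without VCD_Low_E2_P4 as well, these fold changes became 3.47, 3.03, 1.51, 1.31, 1.18 and 0.57, with adjusted p from 0.000267 for Cald1 to 0.0350 for Tpm1 (edgeR). The mural markers (7 genes) summed to 48.8 to 60.5 CPM without hormone and to 17.5 to 24.2 CPM in the hormone libraries of the Tnc gate, a sum carried mostly by Abcc9 and Kcnj8. Single markers did not all follow it. The 6 E2 and E2 + P4 libraries held 52.2% of all UMIs of this gate over its 12 libraries. Of the marker UMIs they held 191 of 738 for Abcc9 and 79 of 276 for Kcnj8, below that share, 104 of 172 for Notch3 (60.5%), nearer to it, and 28 of 35 for Mcam and 11 of 13 for Rgs5, above it. Myh11 and Higd1b had 7 of 17 and 3 of 7 there. The part of mural RNA in the contractile values, beyond the settings above, was not tested. The basal markers (5 genes) summed to at most 2.61 CPM in these 9 libraries, with 2 to 4 of the 5 at 0. The skeletal muscle markers (7 genes) summed to 3.58 to 7.95 CPM in 8 of these libraries and to 124 CPM in VCD_Low_E2_P4, where none was at 0.

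How the UMIs were spread over cells differed between the genes. Of the 580 Acta2 UMIs in the Tnc gate, 82.6% lay in 28 of the 2822 cells (1% of them), and 128 in a single cell of VCD_E2_P4. The top 1% of cells, ranked for each gene on its own, held 55.1% of the UMIs of Tagln, 24.3% of Tpm2, 19.1% of Cnn2, 13.9% of Myl9, 13.5% of Tpm1 and 9.38% of Cald1. With the highest cell of each library left out, Acta2 in the Tnc gate ran from 0.720 to 1.28 CPM without hormone, from 3.70 to 10.9 CPM with E2 and from 14.4 to 27.3 CPM with E2 + P4, and its log2 fold change was 3.21 (adjusted p = 5.88e-05, edgeR). Without hormone these values rest on a few UMIs per library, the lowest below the level of 3 UMIs. Leaving out a cell weighs most there, so the larger fold change is not read as a stronger response. Tagln, treated likewise, kept a log2 fold change of 2.78 (adjusted p = 0.00106, edgeR).

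Shares of cells put this in other terms. With each cell thinned to 5000 UMIs, Tagln was detected in 0.896% to 4.80% of Tnc-gated cells in the libraries without hormone, in 3.03% to 7.73% with E2 and in 12.9% to 15.5% with E2 + P4. Acta2 was detected in 0.597% to 1.60%, 1.10% to 3.08% and 5.71% to 7.98% of the cells in the same arms. In VCD_Low_E2_P4, 84 of 247 cells were too shallow to be thinned. Pooled over libraries and thinned, immune cells showed Acta2 in 0.782% and Tagln in 0.626% of cells, at a median depth of 7597 UMIs before thinning against 16553.5 in fibroblasts, so the shares of Acta2 without hormone lay near this background. Unthinned, 3.86% of the Tnc-gated cells had an Acta2 UMI and 9.67% a Tagln UMI.

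Across all fibroblasts, gated or not, 47 cells had at least 10 Acta2 UMIs and together held 47.5% of the Acta2 UMIs of all fibroblasts. Of these, 26 were from E2 + P4 libraries, 15 from E2 libraries, 5 from VCD libraries without hormone and 1 from Intact. Here VCD_Vehicle_NormEnv was counted among the libraries without hormone. These are counts and not shares, and libraries held from 1413 to 4814 fibroblasts, the most in VCD_Low_E2_P4. How many of the 26 came from that library is not given here. By gate, 24 of the 47 cells were in none of the 4 gates, 13 in Tnc, 5 in Fabp4, 3 in Dpp4 and 2 in Gdf10. The ungated fibroblasts were 8049 of 31438 and those of the Tnc gate 2822. Of the 13 Tnc-gated cells, 12 were from E2 or E2 + P4 libraries and 1 had 2 or more mural markers, whereas over all 47 cells 13 had 2 or more mural markers, 18 had 1 and 16 had none. At least 1 Tagln UMI was present in 37 of the 47.

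Immune cells of the same libraries were read as a guide to free RNA. Their Acta2 lay between 1.01 and 4.44 CPM in 10 libraries but at 24.6 CPM in VCD_Low_E2_P4 and 21.4 CPM in VCD_Vehicle_NormEnv. These libraries held most of the skeletal muscle cells. Such cells, pooled over all libraries, had 28.05 CPM of Acta2 and no UMI of Cnn1 or Actg2. The immune cells of VCD_Low_E2_P4 held 215 Acta2, 27 Cnn1 and 31 Actg2 UMIs. The source of these UMIs was not tested. The summed Acta2 level of the Tnc gate in VCD_Low_E2_P4 (20.3 CPM) was below that of the immune cells there. By cells the order was the other way, since after thinning 13 of 163 Tnc-gated cells (7.98%, 95% Clopper-Pearson interval 4.32% to 13.3%) and 5 of 554 immune cells (0.902%, interval 0.294% to 2.09%) of that library had an Acta2 UMI. Acta2 UMIs of these immune cells were thus not spread evenly over the cells, and their sum is not taken here as a measure of free RNA. No order is read from this library alone, and the call for E2 remained without it. For Tagln the immune cells of VCD_Low_E2_P4 were at 11.9 CPM against 59.5 CPM in its Tnc gate.

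**Figure D2:**
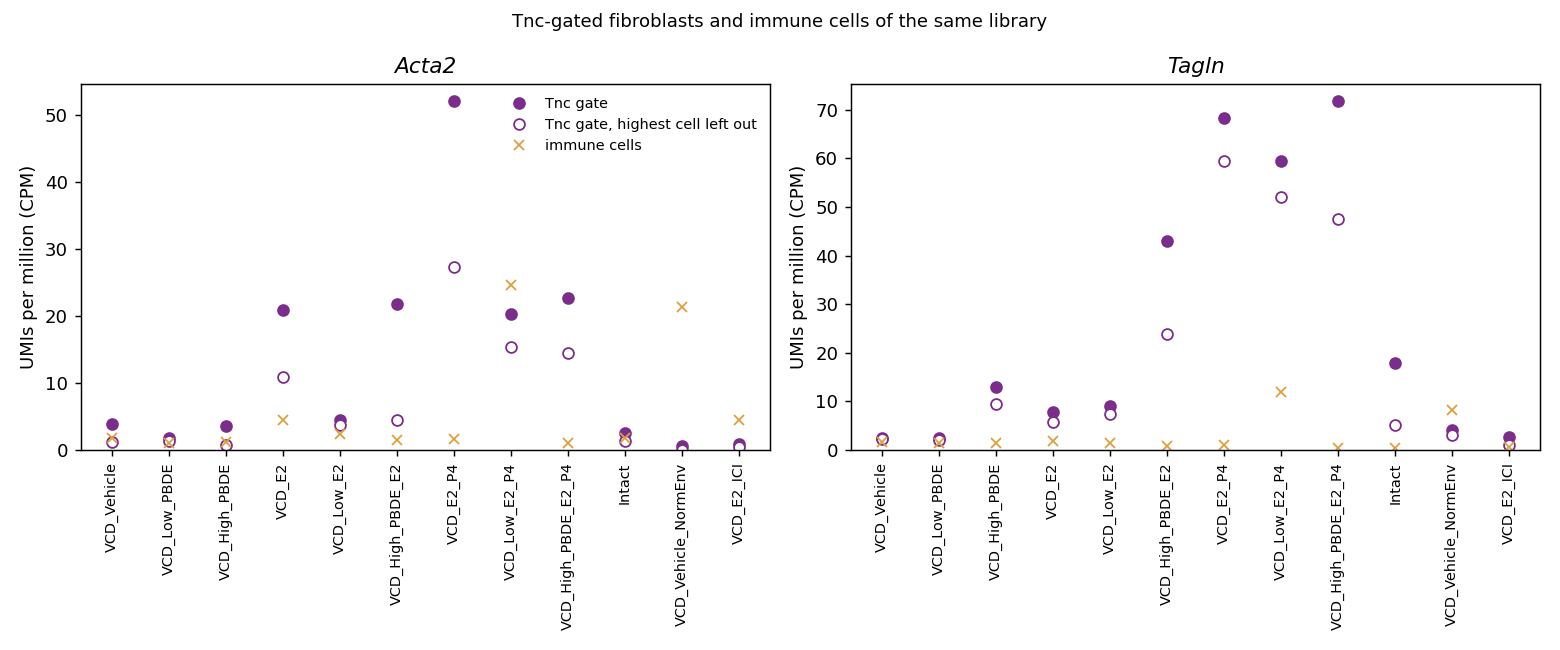
CPM of Acta2 and Tagln in each of the 12 libraries, for Tnc-gated fibroblasts (filled circles), the same cells with the highest cell left out (open circles) and immune cells of the same library (crosses), on linear axes from 0. In VCD_Low_E2_P4 the immune cells (24.6 CPM of Acta2) exceed the Tnc gate (20.3 CPM), whereas for Tagln the Tnc gate is above the immune cells in all 6 hormone libraries.

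In the Fabp4 gate, fibroblasts with genes of lipid uptake, contractile genes were also higher with E2 or E2 + P4. Of 7 genes, 5 were higher (Tagln, Tpm2, Acta2, Cnn2 and Cald1) and Myl9 was lower, where 13.4% of 11763 genes were called, 7.26% higher and 6.16% lower. Tagln was at 0.949, 1.20 and 1.28 CPM without hormone, at 4.92, 8.16 and 10.3 CPM with E2 and at 8.96, 16.0 and 22.2 CPM with E2 + P4, in the order of diets used above. The 6 hormone libraries all lay above the 3 others, as in 9.90% of genes in the upward direction, while E2 and E2 + P4 overlapped, and the log2 fold change was 3.15 (SE 0.191, adjusted p = 5.75e-05, edgeR). Tpm2 rose from 5.50, 5.55 and 1.71 CPM to 9.96, 11.8 and 17.5 CPM with E2 and to 26.1, 37.9 and 33.1 CPM with E2 + P4, with no overlap and a log2 fold change of 2.13 (SE 0.296, adjusted p = 0.00181, edgeR).

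The remaining changes in the Fabp4 gate were smaller. The log2 fold changes were 1.32 for Acta2 (SE 0.276, adjusted p = 0.0133, edgeR), 0.62 for Cnn2 (SE 0.151, adjusted p = 0.0257, edgeR), 0.59 for Cald1 (SE 0.115, adjusted p = 0.00935, edgeR) and 0.24 for Tpm1 (adjusted p = 0.129, edgeR). Acta2 ran from 2.59 to 3.13 CPM without hormone and from 3.40 to 10.9 CPM with it. The test takes E2 and E2 + P4 together, and for Cnn2 the arms differed: it was at 12.8 to 18.0 CPM without hormone, at 14.1 to 23.5 CPM with E2, an overlap, and at 29.0 to 36.4 CPM with E2 + P4. Myl9 went from 52.4 to 98.3 CPM without hormone to 35.9 to 68.1 CPM with it, an overlap, and its log2 fold change was -0.43 (SE 0.116, adjusted p = 0.0384, edgeR).

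Tpm2 alone among these kept its call in each of 24 settings. Tagln lost it with a gate limit of 1.0 (log2 1.97, adjusted p = 0.110, edgeR). Acta2 lost its call without the negative selection of fibroblasts (log2 0.72, adjusted p = 0.398, edgeR), with cells bearing mural, basal or muscle UMIs dropped (log2 0.60, adjusted p = 0.170, edgeR), with the highest cell of each library left out (0.74, adjusted p = 0.0822, edgeR) and without VCD_Low_PBDE (0.93, adjusted p = 0.107, edgeR), and Cald1 did so without VCD_Low_PBDE (0.55, adjusted p = 0.0567, edgeR). The call for Cnn2 was lost without VCD_Vehicle, VCD_Low_PBDE, VCD_Low_E2, VCD_E2_P4 or VCD_Low_E2_P4 (0.45 to 0.63), and that for Myl9 without any 1 library other than VCD_E2_P4 (-0.24 to -0.52). Myl9 also lost it with the marker-bearing cells dropped (-0.45, adjusted p = 0.0901, edgeR), which left 4 calls. Without VCD_Low_PBDE 2 calls were left in this gate, Tpm2 and Tagln. A term for the code in the file names, whose meaning is not stated, left the same 2, but within a diet the code differed only between VCD_Low_PBDE and the other 2 low-diet libraries, so that beside the PBDE term it amounts to leaving VCD_Low_PBDE out and is no separate check. The mural markers of this gate summed to 52.8 to 63.0 CPM without hormone and to 25.3 to 51.0 CPM with it, and the basal markers to at most 0.789 CPM. The skeletal muscle markers summed to 2.75 to 11.4 CPM in 8 of the 9 libraries and to 208 CPM in VCD_Low_E2_P4, which also had the highest Tpm2 level, and the call for Tpm2 remained without that library.

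Few calls were made in the Dpp4 and Gdf10 gates, although the median log2 fold changes of the 7 genes were 0.71 and 0.39 there. The median was 0.62 in the Fabp4 gate. For all genes tested it was 0, -0.01 and -0.02 in the same order of gates. In the Dpp4 gate, Myl9 was the only gene called of 7, and it was higher, where 11.2% of 12611 genes were called and 5.96% were higher. It was at 30.6, 16.1 and 25.1 CPM without hormone, at 38.8, 34.3 and 66.3 CPM with E2 and at 40.4, 38.1 and 44.0 CPM with E2 + P4, so that all hormone libraries were above all others (7.76% of genes in that direction), and the log2 fold change was 0.87 (SE 0.171, adjusted p = 0.0207, edgeR). The call was lost without VCD_High_PBDE (0.74), VCD_Low_E2 (0.89), VCD_Low_E2_P4 (0.79) or VCD_Low_PBDE (0.75). Acta2 had a log2 fold change of 1.70 with an SE of 0.742 in this gate and was not called. It was at 0.126 to 0.930 CPM without hormone and 0.436 to 2.73 CPM with it. Of the 7 genes, 3 had an unadjusted p under 0.05 (edgeR), namely Myl9, Tpm2 (0.93) and Cnn2 (0.20). The genes not called are not shown to be without a response. In the Gdf10 gate none of 7 was called by edgeR or DESeq2 (2.82% of 10904 genes were). An unadjusted p under 0.05 (edgeR) was found for 3, Acta2 (1.06), Tpm2 (0.60) and Tpm1 (0.39). There Acta2 ran from 2.08 to 3.07 CPM without hormone and from 1.55 to 18.7 CPM with it, the highest value being VCD_E2, where 56 of 72 Acta2 UMIs lay in 1 cell and where 11 of the 12 Actg2 UMIs of the gate also lay in 1 cell.

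**Figure D3:**
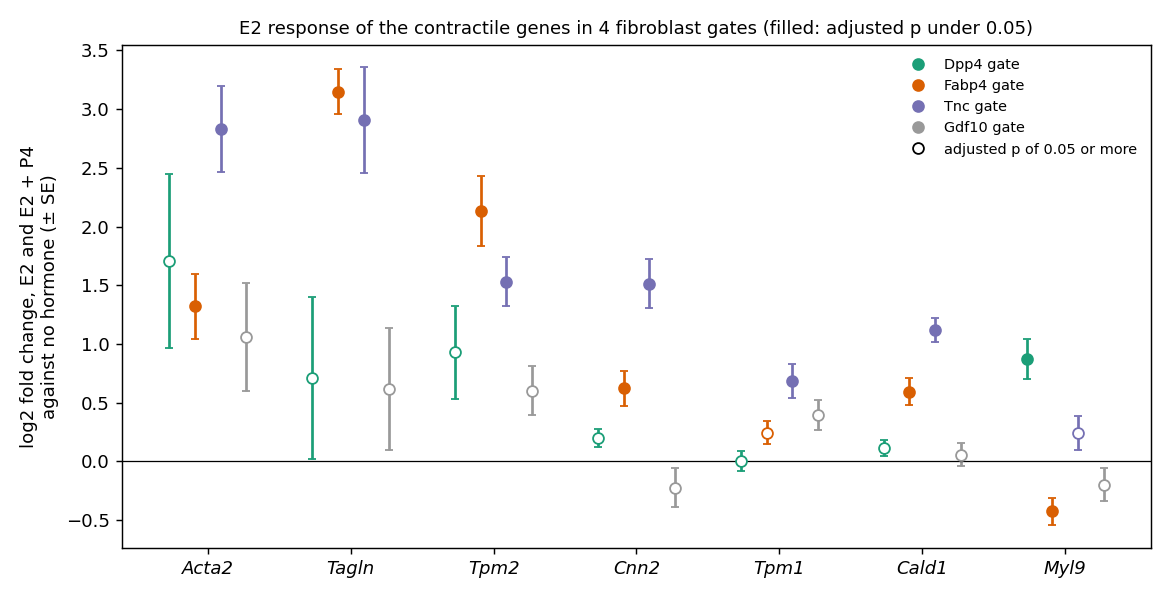
Log2 fold change (± SE from edgeR) of 7 contractile genes for E2 and E2 + P4 against no hormone in the Dpp4, Fabp4, Tnc and Gdf10 gates, from 9 libraries per gate. Filled points have an adjusted p under 0.05: 6 in the Tnc gate, 6 in the Fabp4 gate, where Myl9 is below 0, 1 in the Dpp4 gate and none in the Gdf10 gate.

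Whether the response differed between gates was tested with the interaction of gate and hormone over 36 sums, each gate against the mean of the other 3. For the Tnc gate, Cnn2 (1.29, SE 0.219, adjusted p = 6.14e-05, edgeR), Cald1 (0.86, SE 0.10, adjusted p = 5.2e-07, edgeR) and Tpm1 (0.45, SE 0.131, adjusted p = 0.0110, edgeR) responded more strongly than in the other gates, where 30.5% of 11361 genes were called and 14.0% were higher. The differences for Acta2 (1.49, SE 0.857, adjusted p = 0.201, edgeR), Tagln (1.47, SE 0.777, adjusted p = 0.160, edgeR) and Tpm2 (0.33, SE 0.360, adjusted p = 0.528, edgeR) did not pass the test. For the Dpp4 gate, Myl9 responded more (1.02) and Tpm1 (-0.43) and Cald1 (-0.47) less than elsewhere, with 21.0% of genes called. For the Fabp4 gate, Myl9 responded less (-0.72), with 4.32% called, and for the Gdf10 gate Cnn2 (-1.03) and Cald1 (-0.55), with 6.93% called. The gate dependence passed the test for Cnn2, Cald1, Tpm1 and Myl9, and Myl9 took another order of gates than the other 3. Several of these calls were lost without 1 library, and all of those were lost without VCD_Low_PBDE, where 5 of the 9 remained.

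Progesterone added to E2 was tested as E2 + P4 against E2. In the Tnc gate, Tagln (1.97, SE 0.369, adjusted p = 0.0168, edgeR) and Myl9 (0.67, SE 0.160, adjusted p = 0.0458, edgeR) were higher, 2 of 7, where 3.64% of genes were called and 1.25% were higher. Levels with P4 against E2 alone were 59.5 to 71.8 against 7.85 to 43.0 CPM for Tagln and 50.7 to 57.1 against 24.9 to 38.8 CPM for Myl9. The 3 libraries with P4 also lay above the 3 with E2 alone for Tpm2, Cnn2 and Cald1, which were not called, so 5 of 7 genes did not overlap, where 11.7% of all genes did not in that direction. Acta2 (1.03, adjusted p = 0.0820), Tpm2 (0.74, adjusted p = 0.0850), Cnn2 (0.63, adjusted p = 0.112), Cald1 (0.33, adjusted p = 0.129) and Tpm1 (0.09, adjusted p = 0.823) did not pass in edgeR. Both calls were fragile. Myl9 lost its call without any 1 of the 9 libraries (0.45 to 0.83, adjusted p up to 0.240, edgeR), and Tagln without VCD_E2 (1.65), VCD_E2_P4 (1.59), VCD_Low_E2 (1.72) or VCD_Low_E2_P4 (1.71). Acta2 was called, in contrast, without VCD_High_PBDE_E2 (1.52, adjusted p = 0.00717, edgeR), without VCD_High_PBDE_E2_P4 (1.53, adjusted p = 0.0130, edgeR) and with the highest cell of each library left out (1.59, adjusted p = 0.00833, edgeR), as it was without the negative selection (1.38, adjusted p = 0.0479, edgeR). Tpm2 was called without VCD_High_PBDE_E2 (1.08, adjusted p = 0.00548, edgeR), with a gate limit of 1.0 (0.80, adjusted p = 0.00906, edgeR), with a mitochondrial limit of 10% (0.81, adjusted p = 0.0158, edgeR) and with doublets removed (0.75, adjusted p = 0.0453, edgeR). Without a filter on low counts Acta2 (1.04), Tpm2 (0.75) and Cnn2 (0.64) were all called, so the 5 genes that did not pass are not shown to be without a response.

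In the Fabp4 gate, Tagln (0.96, SE 0.154, adjusted p = 0.0301, edgeR) and Cnn2 (0.87, SE 0.168, adjusted p = 0.0475, edgeR) were higher with P4, where 1.01% of genes were called and 0.604% were higher. Either call was lost when any 1 of the 6 libraries given E2 or E2 + P4 was left out, with log2 fold changes of 0.88 to 1.04 for Tagln and 0.73 to 1.09 for Cnn2, and when the highest cell was left out (1.60 and 0.87). With a gate limit of 1.0, the difference for Tagln was 0.01 (adjusted p = 0.999, edgeR) and that for Cnn2 was 0.88 (adjusted p = 0.0718, edgeR). Tpm2 stood at 9.96 to 17.5 CPM with E2 and 26.1 to 37.9 CPM with E2 + P4 and had a log2 fold change of 1.27 with an adjusted p of 0.0683 (edgeR). It was called by DESeq2 (1.27, adjusted p = 0.00386), and by edgeR with a gate limit of 1.0 (1.20, adjusted p = 0.0444), with marker-bearing cells dropped (1.38, adjusted p = 0.0296), without a filter on low counts (1.28, adjusted p = 0.00131), and without VCD_High_PBDE (1.32), VCD_High_PBDE_E2 (1.64) or VCD_Vehicle (1.29). In the Dpp4 and Gdf10 gates no contractile gene was called for P4 by edgeR or DESeq2 (0.111% and 0.0550% of genes were), and 2 in each had an unadjusted p under 0.05. All of these were lower with P4, namely Tpm1 (-0.32) and Cnn2 (-0.43) in the Dpp4 gate and Acta2 (-1.51) and Tagln (-1.52) in the Gdf10 gate.

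No contractile gene was called by edgeR for either PBDE diet in any gate, over 28 tests each. Of all genes, 0, 0.00850%, 0.00909% and 0.0275% were called for the low diet in the Dpp4, Fabp4, Tnc and Gdf10 gates, and 0.127%, 0.391%, 0.0636% and 0.404% for the high diet. For the low diet, 5 of the 28 had an unadjusted p under 0.05 (0 of 7 in the Dpp4 gate, 2 in Fabp4, 2 in Tnc and 1 in Gdf10), as had 604 of 12611, 325 of 11763, 317 of 11002 and 387 of 10904 of all genes in these gates. The smallest among the 28 was that of Acta2 in the Tnc gate (log2 -1.53, adjusted p = 0.999, edgeR), and DESeq2 called none. For the high diet, 9 of the 28 had an unadjusted p under 0.05 (1 of 7 in the Dpp4 gate, 3 in Fabp4, 1 in Tnc and 4 in Gdf10), as had 2475, 1814, 1344 and 1526 of the same totals of all genes, and DESeq2 called 1, Tagln in the Tnc gate. Tagln had log2 fold changes of 1.10 in the Tnc gate (adjusted p = 0.334, edgeR) and 1.02 in the Fabp4 gate (adjusted p = 0.0535, edgeR) for the high diet. It was called in the Fabp4 gate without VCD_High_PBDE and in the Tnc gate without VCD_High_PBDE_E2_P4. The 4 genes with an unadjusted p under 0.05 in the Gdf10 gate were all lower with the high diet. These were Acta2 (-1.89, adjusted p = 0.182), Tagln (-1.74, adjusted p = 0.256), Tpm2 (-0.95, adjusted p = 0.154) and Cald1 (-0.25, adjusted p = 0.342), all in edgeR.

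The libraries outside this layout have no replicate and no test. In the Tnc gate of the Intact library, Acta2 was at 2.46 CPM (95% Poisson interval 1.27 to 4.29), within the range of the VCD libraries without hormone, and Tpm1 was at 59.9 CPM, below them. Tagln, at 17.8 CPM, was above the vehicle libraries, but 62 of its 87 UMIs lay in 1 cell, and it came to 5.11 CPM without that cell. Cald1 (476 CPM), Cnn2 (29.7 CPM) and Tpm2 (38.1 CPM) in Intact were above the 3 VCD libraries without hormone and, for Cald1, below every E2 library. With ICI beside E2, the levels in VCD_E2_ICI were near or below those without hormone: Acta2 at 0.864 CPM, Tagln at 2.59, Tpm2 at 22.9, Tpm1 at 70.9, Myl9 at 29.4, Cnn2 at 21.2 and Cald1 at 395 CPM. Of these, Cnn2 and Cald1 lay just above the vehicle range and below the range of the E2 libraries, while Acta2 and Myl9 lay below the vehicle range. The Acta2 levels of VCD_E2_ICI and of VCD_Vehicle_NormEnv, given next, rest on fewer than 3 UMIs each. In VCD_Vehicle_NormEnv, Acta2 was at 0.585 CPM, Tagln at 4.09, Tpm2 at 17.5 and Cald1 at 340 CPM, and adding it as a further library without hormone kept all 6 calls for E2.

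Seen over all fibroblasts of a library, without gates, 6 of the 7 genes did not overlap between the 3 libraries without hormone and the 6 with it, which 12.7% of 14430 genes showed in the upward direction. Acta2 ran from 1.60 to 2.88 CPM without hormone and from 5.30 to 11.4 CPM with it, Tagln from 1.29 to 2.38 and from 4.17 to 16.3 CPM, and Tpm2 from 4.61 to 9.67 and from 14.9 to 42.4 CPM. Cald1 ran from 326 to 434 and from 464 to 597 CPM, Cnn2 from 18.7 to 21.4 and from 26.2 to 31.8 CPM, and Tpm1 from 63.2 to 69.0 and from 71.0 to 114 CPM. Myl9 overlapped, at 38.0 to 54.0 and 40.0 to 60.9 CPM. The highest values of Tpm1 and Tpm2 were both in VCD_Low_E2_P4, which held 71 of the 100 skeletal muscle cells. Pooled over all libraries, those 100 cells carried these tropomyosins at 28100 and 13310 CPM. In such sums a change in the number of cells that make an RNA and a change in the RNA per cell cannot be told apart.

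The contractile response was then set beside the matrix response. The study names 9 matrix genes for E2 in these cells. The list was chosen on samples that include VCD_Vehicle, VCD_E2 and VCD_E2_P4, and so is no independent evidence of its direction. The PBDE libraries are not described in the study. In the Tnc gate all 9 of them rose with E2, with a median log2 fold change of 2.35, against a median of 1.51 for the 7 contractile genes tested and of -0.01 for all genes tested. Postn (periostin, 3.67), Col3a1 (type III collagen, 2.72), Eln (elastin, 2.55) and Fn1 (fibronectin, 2.41) rose most. The sum of all 9 matrix genes ran from 10070 to 11510 CPM without hormone, from 38750 to 65100 CPM with E2 and from 79420 to 82700 CPM with E2 + P4, the same 3 steps that Cald1 showed. It was 18030 CPM in Intact, 17750 CPM in VCD_E2_ICI and 17060 CPM in VCD_Vehicle_NormEnv. Against the mean of the other gates, the response to E2 was called higher in the Tnc gate for all 9 matrix genes and for 3 of 7 contractile genes, where 14.0% of all genes were.

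**Figure D4:**
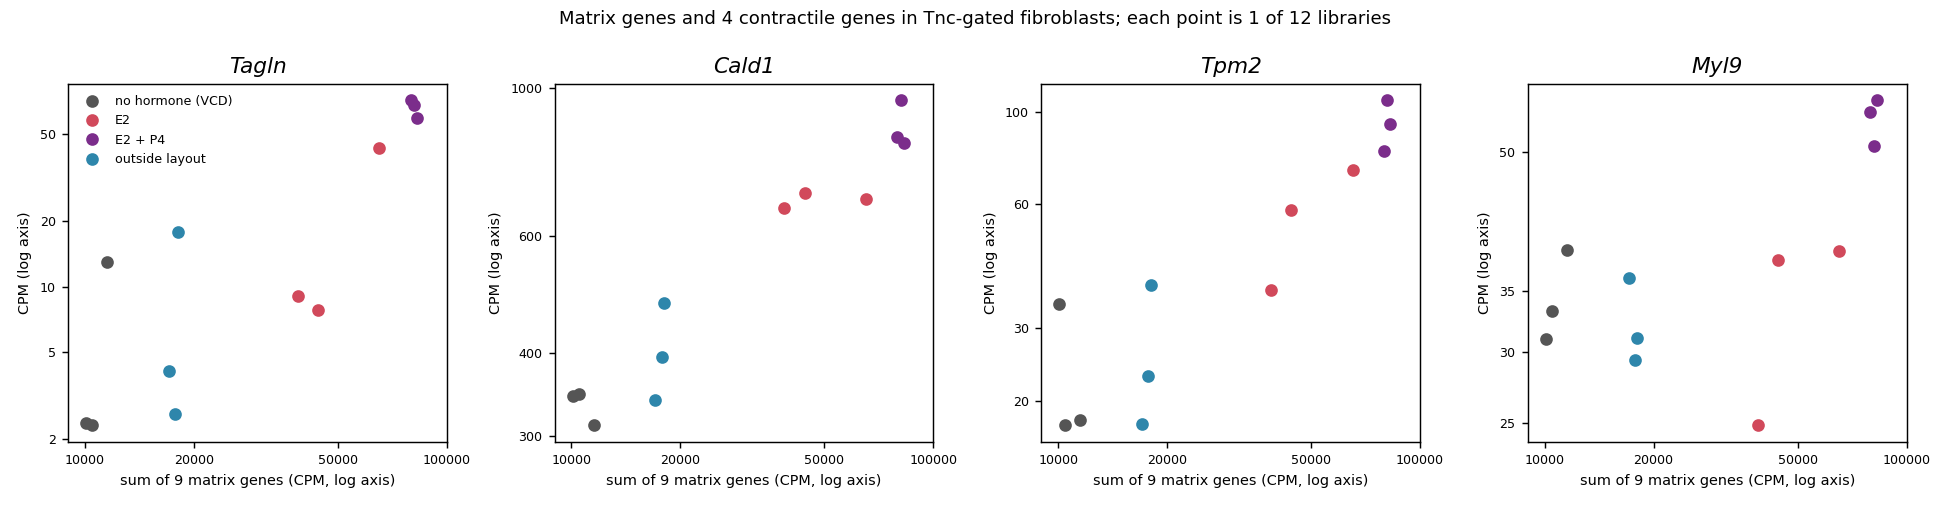
Level of Tagln, Cald1, Tpm2 and Myl9 (CPM, log axis) against the summed level of the 9 matrix genes (CPM, log axis) in the Tnc gate, with 1 point per library and the colors of the hormone arms as in the plot of levels by library. Cald1 rises in steps with the matrix genes from no hormone (10070 to 11510 CPM) through E2 to E2 + P4 (79420 to 82700 CPM), whereas no E2 library is above the vehicle libraries in Myl9; the points share libraries and hormone arms, and no correlation is drawn from them.

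Outside the Tnc gate, fewer matrix genes were called, and so were fewer of all genes, 13.4% in the Fabp4, 11.2% in the Dpp4 and 2.82% in the Gdf10 gate against 31.7% in the Tnc gate. Among the 9 matrix genes in the Fabp4 gate, Fn1 (3.04, adjusted p = 0.000420, edgeR), Postn (2.36, adjusted p = 0.00201, edgeR) and Col5a2 (0.51, adjusted p = 0.0344, edgeR) rose, and Mgp (matrix Gla protein, -1.69, adjusted p = 5.75e-05, edgeR) and Eln (-0.78, adjusted p = 0.00876, edgeR) fell, while 5 of 7 contractile genes rose and Myl9 fell. These 5 matrix genes were named after their values in this gate were seen. The calls for Fn1, Postn and Mgp held in every setting run on them, and that for Eln in all but a gate limit of 0.25 (-0.58, adjusted p = 0.0620, edgeR). Col5a2 lost its call with a gate limit of 1.0 (0.40), without the negative selection (0.45) and without VCD_E2_P4, VCD_High_PBDE, VCD_Low_E2, VCD_Low_E2_P4 or VCD_Low_PBDE (0.36 to 0.53). In the Dpp4 gate 3 rose (Col4a1 at 0.93, Col3a1 at 0.92 and Col5a2 at 0.82) and Fn1 fell (-0.33). Myl9, which was higher, was the only contractile gene called there. In the Gdf10 gate 2 matrix genes rose and 1 fell with no contractile gene called. All 4 of the matrix calls in the Dpp4 gate were lost without VCD_Low_PBDE (0.82, 0.77, 0.75 and -0.28). Col4a1 lost its call also without VCD_High_PBDE (0.87), Col5a2 without VCD_Vehicle (0.72), and Fn1 without any of VCD_Vehicle, VCD_High_PBDE, VCD_E2, VCD_Low_E2 and VCD_High_PBDE_E2_P4 (-0.32 to -0.37). With P4 in the Tnc gate, 5 of the 9 matrix genes and 2 of the 7 contractile genes rose, where 1.25% of all genes did.

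A longer list of 35 other genes of actin, myosin and adhesion gave a mixed picture in the Tnc gate. Of the 30 that were tested for E2, 14 rose, 4 fell and 12 were not called, with a median log2 fold change of 0.32, where 31.7% of all genes were called and 16.1% were higher. Those that rose most were Mylk (myosin light chain kinase, 1.55), Palld (palladin, 1.09), Smtn (smoothelin, 1.01) and Myh10 (nonmuscle myosin IIB, 0.98). Those that fell were Srf (serum response factor, -1.01), Tpm3 (a further tropomyosin, -0.92), Ppp1r12a (a subunit of myosin phosphatase, -0.60) and Actg1 (cytoplasmic γ-actin, -0.47). The call for Mylk was lost without VCD_High_PBDE (1.28), VCD_Low_E2_P4 (1.42) or VCD_Vehicle (1.46), and that for Actg1 without VCD_E2_P4 (-0.45), VCD_High_PBDE (-0.27) or VCD_Low_E2_P4 (-0.47).

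In the Fabp4 gate, 32 of these 35 genes were tested, and 8 rose and 2 fell, with a median log2 fold change of 0.20, where 13.4% of all genes were called. Myh10 (0.89), Csrp1 (an actin-associated LIM protein, 0.76), Cnn3 (a further calponin, 0.63) and Zyx (zyxin, of focal adhesions, 0.61) rose most, and Tpm3 (-0.51) and Ppp1r12a (-0.27) fell. These 6 were named after their values in this gate were seen. Csrp1, Cnn3 and Zyx kept their calls with each library left out. The call for Ppp1r12a was lost without any 1 of the 9 libraries (-0.21 to -0.32) and with DESeq2, that for Tpm3 without VCD_E2_P4 (-0.48), VCD_High_PBDE (-0.36) or VCD_Vehicle (-0.48), and that for Myh10 without any but VCD_E2, VCD_High_PBDE_E2 and VCD_High_PBDE_E2_P4 (0.68 to 1.08). In the Gdf10 gate 0 of 33 were called by edgeR or DESeq2 (median log2 0.03), 2 had an unadjusted p under 0.05 in edgeR, and 2.82% of all genes were called.

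In the Dpp4 gate, 32 of these 35 genes were tested, and 4 rose and 2 fell, where 11.2% of all genes were called. Mylk (1.13), Csrp1 (0.57), Myh9 (nonmuscle myosin IIA, 0.40) and Actg1 (0.38) rose, and Myh10 (-0.57) and Actn4 (α-actinin 4, -0.21) fell, so that Actg1 and Myh10 had the opposite sign to that in the Tnc gate. Of the 6, Csrp1 alone kept its call with each library left out, and Actn4 lost it with any 1 left out (-0.18 to -0.23). The call for Mylk was lost without any library but VCD_Low_E2 (0.87 to 1.55) and that for Actg1 without any but VCD_High_PBDE_E2 (0.29 to 0.42). Myh9 lost it without VCD_High_PBDE (0.35), VCD_Low_E2 (0.40), VCD_Low_PBDE (0.46) or VCD_Vehicle (0.37), and Myh10 without VCD_Low_E2 (-0.55), VCD_Low_PBDE (-0.56) or VCD_Vehicle (-0.54).

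Immediate early genes such as Fos and Jun, which cell dissociation is known to induce, moved with these results. Their 11 genes summed to 23870 to 31720 CPM without hormone, 11550 to 18210 CPM with E2 and 8580 to 10740 CPM with E2 + P4 in the Tnc gate, and all 11 were called lower with E2 (median log2 -1.29), where 31.7% of all genes were called either way. Of the 11, 10 were lower in the Fabp4 gate (6.16% of all genes were), 3 in the Gdf10 gate (2.82% called either way) and 2 in the Dpp4 gate (11.2% called either way). Their part in the contractile response was not tested.

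Across the 12 libraries of the Tnc gate, the genes whose levels ran most closely with each contractile gene were found among 2720 genes by Pearson's r of log2 CPM, as a description without a test, since the libraries share hormone arms. Cald1 ran with Fam162a (0.983), Tmem167 (0.981) and Abracl (0.979), and Cnn2 with Arpc2 (0.965), Cotl1 (0.956) and Tpm4 (0.953). Tpm2 ran with Cthrc1 (0.957), Dennd2a (0.955) and Prkar1a (0.951), Tpm1 with Ostf1 (0.921), Itgb1 (0.916) and Rbx1 (0.909), and Myl9 with Msrb1 (0.892) and Hpcal1 (0.870). Acta2 and Tagln were too low for this comparison over all 12 libraries.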

How the data were processed

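Cells from the mammary glands of 12 groups of mice, 1 library each, were profiled with Chromium 3′ v3 chemistry. The authors deposited raw UMI counts, not normalized, for each gene and droplet. Per the labels they come from Cell Ranger 3.1.0 and the mm10 build. The sequencer is a HiSeq in the labels but a NovaSeq in the study's methods.

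Groups were taken from the sample labels. Barcodes were kept from 500 genes and 1000 UMIs upwards, with up to 5% of UMIs mitochondrial. Fibroblasts lacked UMIs of Cspg4, Pecam1, Cd52, Ptprc, Krt14 and Epcam and had at least 1 of Col1a1 or Pdgfra. Each cell was scored by the mean z-score of log counts per 10000 over the 5 markers of each of 4 gates and placed in the gate with the top score if it led by 0.5. No doublet caller was applied in the main analysis. As an alternative, the 0.8% per 1000 barcodes with the highest Scrublet scores (scanpy 1.11.5) were removed, 1023 of them fibroblasts.

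UMI counts were summed per library and gate and tested with edgeR 4.0.16 (R 4.3.3; TMM, quasi-likelihood test, filterByExpr with a minimum count of 10, Benjamini-Hochberg threshold 0.05 over all genes tested). The 9 libraries of the full layout were fitted with hormone and PBDE as additive terms, without their interaction, which left 4 residual degrees of freedom. Gates were compared over 48 sums of 12 libraries, and E2 by gate was an interaction over 36 sums with library as a block. Calls and counts of calls use adjusted p-values. DESeq2 1.42.0 and other settings were alternatives. Poisson and Clopper-Pearson intervals (95%) cover counting error only. Each fit was tested on simulated data with known changes.

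The 9 genes, the markers and the lists were chosen with earlier results of these data known. Named by rule were the 9 genes in every gate, up to 4 called genes in each direction of the matrix list and of the list of other contractile genes for E2 in the Tnc and Dpp4 gates, and the 3 genes most like each tested gene (mean of at least 50 CPM). One of the latter, for Myl9, is not reported here. Protein sequences were not used here.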

Additional observations from a re-analysis of the deposited data

Results flagged for a closer look

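The responses to E2 that differed between gates by the interaction test, each gate against the mean of the other 3 on the log2 scale, concerned 4 contractile genes. In the Tnc gate, the response was larger by 1.29 for Cnn2, 0.86 for Cald1 and 0.45 for Tpm1. In the Dpp4 gate it was larger by 1.02 for Myl9, and the differences for Tpm1 and Cald1 were -0.43 and -0.47. In the Fabp4 gate the difference for Myl9 was -0.72. In the Gdf10 gate the differences were -1.03 for Cnn2 and -0.55 for Cald1. Myl9 in the Dpp4 gate and Cald1 in the Tnc, Dpp4 and Gdf10 gates kept their call in all 19 other settings, as did Cnn2 in the Tnc gate. Without VCD_Low_PBDE, the calls were lost for Tpm1 in the Dpp4 gate (-0.34) and the Tnc gate (0.42), for Myl9 in the Fabp4 gate (-0.67) and for Cnn2 in the Gdf10 gate (-1.0). Without VCD_Vehicle, those for Tpm1 in the Dpp4 gate (-0.41) and Cnn2 in the Gdf10 gate (-1.01) were lost, and Myl9 in the Fabp4 gate lost its call also without VCD_E2_P4 (-0.69) or VCD_High_PBDE (-0.55). The call for Cnn2 in the Gdf10 gate was also lost with cells bearing mural, basal or muscle UMIs dropped (-0.82, adjusted p = 0.124, edgeR), and that for Tpm1 in the Tnc gate with a gate limit of 0.25 (0.35, adjusted p = 0.0814, edgeR). The gates are contrasted with each other, so the differences of 1 gene in several gates are not separate results.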

How the results depend on the processing

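The count of 6 calls for E2 in the Tnc gate held under all 24 alternatives run on it, those leaving out 1 library included, and the gate contrasts gave 20 to 22 calls under 10 alternatives. Counts of 0 for P4 in the Dpp4 gate and for low PBDE also held under every alternative run on them. In the Fabp4 gate the count of 6 for E2 fell to 3 with a gate limit of 1.0, 4 with marker-bearing cells dropped, 2 with the file code as a term (which beside the PBDE term amounts to leaving out VCD_Low_PBDE) and 3 with marker-bearing cells and VCD_Low_E2_P4 left out, and ran from 2 to 6 with 1 library left out. In the Dpp4 gate the count of 1 fell to 0 with VCD_Vehicle_NormEnv added, without the PBDE term, with the file code as a term and with marker-bearing cells and VCD_Low_E2_P4 left out, and ran from 0 to 2. In the Gdf10 gate the count of 0 rose to 2 (Tpm1 and Acta2) without a filter on low counts and ran from 0 to 1.

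For P4 in the Tnc gate, the count of 2 became 1 with DESeq2, with a gate limit of 0.25, without the PBDE term and with the file code as a term, 5 without a filter and 0 with marker-bearing cells and VCD_Low_E2_P4 left out, and ran from 0 to 3. In the Fabp4 gate, the count of 2 became 4 without a filter, 1 with a minimum count of 30, a gate limit of 1.0, a mitochondrial limit of 10% or marker-bearing cells and VCD_Low_E2_P4 left out, and 0 without the negative selection, without the PBDE term or with the highest cell left out, and ran from 0 to 3. In the Gdf10 gate the count of 0 rose to 2 (Tagln and Acta2) without a filter, 2 genes that were lower with P4 in the main fit (-1.52 and -1.51). For high PBDE the count of 0 became 1 with DESeq2 (Tagln, Tnc gate) and with a gate limit of 0.25 (Tagln, Fabp4 gate), and ran from 0 to 1. The interaction count of 9 ran from 5 (without VCD_Low_PBDE) to 10 with 1 library left out, and from 8 to 12 in the other settings, with 12 without a filter on low counts and 11 with a gate limit of 1.0. The causes were not tested.

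The sign turned for values that were not called: Cnn2 for E2 in the Gdf10 gate (0.02 with a gate limit of 0.25), Acta2 (-0.19 without the negative selection) and Tagln (-0.10 with VCD_Vehicle_NormEnv added, -0.15 to 0.95 with 1 library left out) in the same gate, Acta2 for P4 in the Fabp4 gate (-0.08 to 0.68) and Tpm1 for P4 in the Tnc gate (-0.04 to 0.32). Thinning moved the share of fibroblasts with an Acta2 UMI from 3.18% to 1.13%. Settings that drop VCD_Low_E2_P4 together with marker-bearing cells, or the highest cell, were chosen after seeing the data. A block on replicate numbers could not be fitted, since each group is 1 library and the groups share no numbers beyond that. Libraries on the same diet were matched by the PBDE term of the fit, and the counts without that term are given above.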
